A study of Mus musculus with 8 samples.

Results

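The regions described here were accessible in day 7 (D7) cells both with and without induced GLI1, and the accessibility signal at their summit was at least 1.5 times as high with GLI1. They were chosen by that signal: overlapping peaks on chromosomes 1 to 19 were merged within the GLI1 list and within the control list, each merged GLI1 region was set against the control regions it overlapped, and it was kept when the ratio of the highest values was at least 1.5 and the GLI1 value at least 10. The rule kept 1881 of the 25659 regions of the GLI1 list that overlapped the control list (7.33%), and 1881 of the 12768 such regions with a GLI1 value of at least 10 (14.7%). The GLI1 list held 42192 regions in all, the control list 37973. The size of the signal and of the ratio is therefore a description of how the regions were picked and carries no test.

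The study used ATAC-seq, which reads out open chromatin by where a transposase can cut the DNA, in cardiac progenitor cells grown from mouse embryonic stem cells. All libraries came from 1 line, GLI1-FTA, of the strain A2Lox.cre. The groups were 3 D7 GLI1 OE libraries, in which doxycycline at 500 ng/ml acted for the last 48 hours of differentiation, 3 untreated D7 control libraries and 2 untreated D5 control libraries, taken on day 5 (D5). The labels do not describe the construct in the line, and since no group had doxycycline without GLI1, effects of the drug and of GLI1 cannot be told apart. Each group was represented by 1 list of peaks made from its libraries together, so values carry no replicate error and conditions are compared without p-values. Which list is that of D7 control was inferred from the names of the lists, of which 1 names doxycycline, 1 D5 and 1 control only. Among 22 genes of cardiac transcription factors, 19 had a region of the GLI1 list within the gene or 1 kb of it, 21 one of the control list and 21 one of the D5 list, and for 19 genes of neural progenitors these numbers were 19, 18 and 16. Open regions lay at marker genes of several lineages, and the labelled cell type was not checked further.

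Hedgehog ligands bind the receptor Patched 1 (PTCH1), which frees Smoothened (SMO) to signal through the GLI transcription factors, and GLI1 is both an activator at the end of this pathway and one of its targets. In the embryo, Hedgehog signals reach the second heart field, whose progenitors lengthen the heart tube, where they hold back differentiation and sustain forkhead genes such as Foxf1. The regions described here had a peak in D7 control as well, unlike those found with GLI1 alone, and whether they had been open on day 5, when doxycycline was added, is given further on.

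For the regions that lay at gene starts the promoter itself can be shown. RefSeq (GRCm38.p6, the assembly of mm10) gave 617 promoter windows of 300 bases, 250 before the start and 50 after it, that lay wholly inside 554 of the 1881 regions. Foxd1 and Foxf2, which encode forkhead factors of mesenchyme, had the largest ratios among the forkhead promoters that this table lists inside these regions, and Hhip, a Hedgehog-binding inhibitor and target of the pathway, is shown beside them. In these 3 sequences the capitals mark the bases from the start onwards. The Foxd1 window lies at chr13:98353995-98354294 on the plus strand, that of Foxf2 at chr13:31625566-31625865 on the plus strand, and that of Hhip at chr8:80057959-80058258 on the minus strand.
Foxd1: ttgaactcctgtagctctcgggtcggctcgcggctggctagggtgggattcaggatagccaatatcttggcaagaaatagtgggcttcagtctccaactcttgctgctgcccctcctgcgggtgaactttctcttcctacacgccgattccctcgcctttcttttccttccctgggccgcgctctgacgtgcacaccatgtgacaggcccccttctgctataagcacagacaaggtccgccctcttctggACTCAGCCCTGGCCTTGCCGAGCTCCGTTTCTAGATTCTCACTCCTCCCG
Foxf2: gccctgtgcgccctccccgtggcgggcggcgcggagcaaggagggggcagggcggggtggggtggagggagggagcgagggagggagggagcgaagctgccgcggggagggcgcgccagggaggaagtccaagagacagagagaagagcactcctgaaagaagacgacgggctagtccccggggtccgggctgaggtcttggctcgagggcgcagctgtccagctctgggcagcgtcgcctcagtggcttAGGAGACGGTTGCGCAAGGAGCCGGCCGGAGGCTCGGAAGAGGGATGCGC
Hhip: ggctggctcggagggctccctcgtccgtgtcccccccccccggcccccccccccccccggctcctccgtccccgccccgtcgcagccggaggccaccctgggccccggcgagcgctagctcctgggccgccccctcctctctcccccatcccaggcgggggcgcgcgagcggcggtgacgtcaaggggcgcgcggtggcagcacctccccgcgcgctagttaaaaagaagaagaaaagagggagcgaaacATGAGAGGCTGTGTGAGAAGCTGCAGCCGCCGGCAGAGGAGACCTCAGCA
The Foxd1 promoter region had a value of 36.9 with GLI1 and 6.84 in control, that of Foxf2 32.6 with GLI1 and 11.3 in control, and that of Hhip 17.2 with GLI1 and 10.1 in control.

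The 9-letter GLI motif GACCACCCA, searched on both strands, was present in 2 of the 617 windows (0.324%, 95% interval 0.0889 to 1.17), against 35 of 20085 promoter windows in all (0.174%). The windows with the motif are shown because no other promoter inside these regions held these letters. They belong to Rab31, a small GTPase of membrane traffic, at chr17:65772703-65773002 on the minus strand, and to Cdc16, a subunit of the anaphase-promoting complex, at chr8:13757406-13757705 on the plus strand. Here the capitals mark the motif, which reads as spelled in Cdc16 and as its reverse complement in Rab31.
Rab31: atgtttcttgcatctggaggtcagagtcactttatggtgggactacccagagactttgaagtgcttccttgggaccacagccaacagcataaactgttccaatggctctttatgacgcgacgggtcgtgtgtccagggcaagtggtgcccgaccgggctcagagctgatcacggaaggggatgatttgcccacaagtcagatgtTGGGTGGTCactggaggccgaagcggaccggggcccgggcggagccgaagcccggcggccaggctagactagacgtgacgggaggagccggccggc
Cdc16: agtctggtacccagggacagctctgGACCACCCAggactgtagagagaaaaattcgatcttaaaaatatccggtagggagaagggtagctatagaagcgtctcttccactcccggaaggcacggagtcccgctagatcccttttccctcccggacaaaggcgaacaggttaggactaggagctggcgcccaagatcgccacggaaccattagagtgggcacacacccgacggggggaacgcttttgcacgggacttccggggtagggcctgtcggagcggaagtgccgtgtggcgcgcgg
The Rab31 region had a value of 11.2 with GLI1 and 6.48 in control, and the Cdc16 region 20.9 with GLI1 and 13.5 in control. Both ratios, 1.73 and 1.55, lay below the median of 1.79 of the selected regions. The promoters of Foxd1, Foxf2 and Hhip did not hold the motif in this window. A match is a run of letters and not a binding site, and regions away from promoters were not searched.

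The value of a region is the peak caller's fold of the read pileup at the summit over a constant background, as the authors deposited it. Over the 1881 regions it ranged from 10.01 to 120.1 with GLI1, with a median of 17.2, and from 2.52 to 74.2 in control, with a median of 8.46. The median pileup behind these values was 97 reads with GLI1 and 46 reads in control. The ratio had a median of 1.79, an interquartile range of 1.61 to 2.29 and a maximum of 11.6, whereas the median ratio was 1.04 over all shared regions and 1.12 over those with a GLI1 value of at least 10. The background was 4.70 reads in the GLI1 list and 4.56 in the control list, 3.11% higher with GLI1, so the lists were of nearly equal depth by this measure. Intervals of single ratios given below are exact 95% intervals from the 2 pileups and cover counting error only. They come from the values that chose the regions and test nothing.

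**Figure D1:**
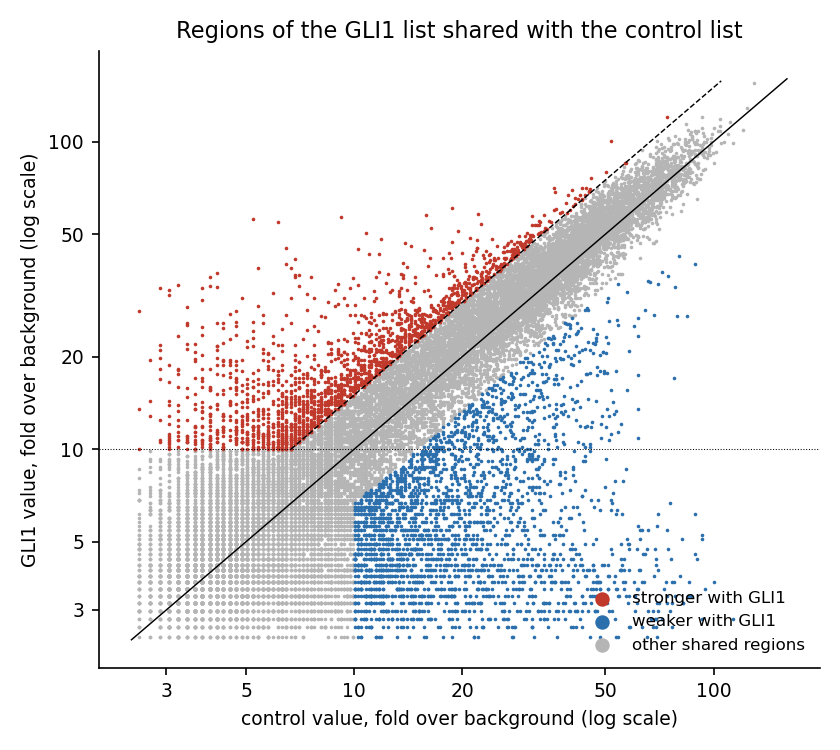
Each point is a region of the GLI1 list that overlaps the control list, with its control value on the horizontal and its GLI1 value on the vertical axis, both as fold over background on log scales. Blue points have a control value of at least 10 and at least 1.5 times the GLI1 value, and grey points are the rest. The solid line is equality, the dashed line a ratio of 1.5 and the dotted line a GLI1 value of 10. The 1881 stronger regions (red) lie above both thresholds.

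The rule has 2 thresholds. Just inside the ratio threshold lay regions at B3glct (35.1 with GLI1, 23.4 in control), Zkscan8 (17.6 with GLI1, 11.7 in control) and 668 kb from Flrt2 (14.0 with GLI1, 9.36 in control). Just outside it lay regions at Wdr43 (49.7 with GLI1, 33.1 in control), Phc2 (35.6 with GLI1, 23.8 in control) and Fam174a (32.1 with GLI1, 21.4 in control). At the value threshold, regions near Abca12, Twist2 and Mettl24 had 10.01 with GLI1, against 2.52, 5.94 and 6.66 in control. Regions near Nr5a2, Mthfd1l and Sobp had 9.83 with GLI1, against 4.68, 3.96 and 3.96 in control, and were left out. Regions on either side of a threshold thus differed by far less than the counting error of a ratio, which for Zkscan8 ran from 1.09 to 2.1.

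There were 2 comparison sets. Exchanging the lists in the rule gave 1956 weaker regions of the control list, out of 12944 with a control value of at least 10 (15.1%), with a median of 6.49 with GLI1 and 16.2 in control. The other set was the 10706 shared regions of the GLI1 list between the thresholds whose higher value was at least 10, with a median of 28.4 with GLI1 and 26.3 in control. The stronger regions were 995 bp wide at the median, the weaker 940 bp and those between the thresholds 1292 bp.

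The region with the most marked change at a Hedgehog gene lay at Ptch1, which encodes the receptor for Hedgehog ligands and is itself a target of the pathway. At chr13:63572096-63574064 (mm10), the summit was 61 bp beyond the upper end of the gene, and Ptch1 is read on the minus strand. Its pileup was 317 reads with GLI1 and 28 reads in control, which gave values of 55.8 with GLI1 and 5.22 in control and a ratio of 10.7 (95% counting interval 7.49 to 16.9). The region was absent from the D5 list. Neighbouring shared regions of Ptch1 behaved otherwise: that at chr13:63567283-63568945 had 59.5 with GLI1 and 58.3 in control, and that at chr13:63562060-63567137 had 49.7 with GLI1 and 36.4 in control. A narrow one at chr13:63569021-63569232 had 2.63 with GLI1 and touched the edge of the same control region of 58.3, so its ratio of 0.045 sets an edge against another summit. So 1 of the strong Ptch1 regions stood at the level of its neighbours with GLI1 and far below them in control.

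Ptch1 was the fourth of the 10 largest ratios, which ran from 8.82 to 11.6. The largest lay 268 kb from the nearest gene, Rfpl4b, at chr10:38551958-38553060, with 33.5 with GLI1 and 2.88 in control. Inside Efna5, which encodes the guidance ligand ephrin-A5, the region at chr17:62734729-62736300 had 28.1 with GLI1 and 2.52 in control. Inside Scube1, which encodes a secreted and cell surface protein, the region at chr15:83712287-83713820 had 33.0 with GLI1 and 3.06 in control. In all 3 the control value was near the lowest that the control list holds at these regions, 2.52, and none overlapped the D5 list. The others of the 10 were nearest to Srbd1 (34.1 with GLI1, 3.24 in control), Tle4, a Groucho corepressor gene 208 kb away (31.6 with GLI1, 3.06 in control), Gas1 (36.2 with GLI1, 3.96 in control), Dph6 (37.4 with GLI1, 4.14 in control), Limch1 (54.6 with GLI1, 6.12 in control) and Cryl1 (33.4 with GLI1, 3.78 in control). Of the 10, those at Srbd1, Dph6 and Cryl1 overlapped a D5 region.

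Ptch1 included, 10 of the 23 genes in the Hedgehog list had a stronger region, with 11 regions in all. Next to Ptch1, the largest ratios were at co-receptor genes. Gas1, a co-receptor that helps Hedgehog ligands bind, had 36.2 with GLI1 and 3.96 in control at chr13:60172787-60174482, with the summit 691 bp outside the gene. Boc, another co-receptor, had 44.9 with GLI1 and 6.48 in control inside the gene at chr16:44537981-44539029, a ratio of 6.93 (4.98 to 10.4). Smo, the signalling receptor, had 44.6 with GLI1 and 27.5 in control at its start. Neither the Gas1 nor the Boc region was in the D5 list, while that of Smo was. Hhip, the inhibitor whose promoter is shown above, had 17.2 with GLI1 and 10.1 in control at its start. At Evc, a component of the ciliary complex that relays the signal of SMO, the values were 14.7 with GLI1 and 9.18 in control.

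Among the transcription factors and their regulators, Gli1 had 2 stronger regions. At chr10:127338678-127342811 the values were 31.9 with GLI1 and 13.3 in control, and at chr10:127332258-127332832 they were 13.0 with GLI1 and 3.96 in control. Both lay in the D5 list, and 9 and 10 regions found with GLI1 and not in control had their summits within 50 kb of them. Reads of an added copy of Gli1, if the line holds one, would be counted at the gene itself, and their part in these values was not tested. Gli3, whose product acts mainly as a repressor, had a region inside the gene with 14.2 with GLI1 and 4.86 in control, and Sufu, which encodes an inhibitor of the GLI proteins, one with 12.8 with GLI1 and 7.74 in control. The stronger regions thus lay at activating and inhibiting genes of the pathway alike.

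The same genes also held regions that did not pass the rule or went the other way. At the start of Gas1 the value was 34.4 with GLI1 and 70.0 in control, a ratio of 0.49 (0.41 to 0.58), although the stronger region of Gas1 lay 3.82 kb from that start. Near Boc, the region at chr16:44602240-44602767 had 12.6 with GLI1 and 30.2 in control. At the start of Gli3 the values were 54.1 with GLI1 and 69.5 in control, and at that of Sufu 65.7 with GLI1 and 63.5 in control. Of the 31 regions with a GLI1 value of at least 10 nearest to Hedgehog genes, 11 were stronger (35.5%, 21.1 to 53.1) and their median ratio was 1.19, against 14.1% and 1.12 over all such regions within 100 kb of a gene. Of the control list, 6 regions at these genes were weaker. Both counts come from the values of the rule, so the interval tests nothing. At Gas1, Boc and Sufu the direction or size thus differed between neighbouring regions of 1 gene.

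Forkhead genes had the largest share of stronger regions among the 19 gene lists examined. Of 41 regions with a GLI1 value of at least 10 nearest to forkhead genes, 25 were stronger (61.0%, 45.7 to 74.3), with a median ratio of 1.65 over the 41, and they belonged to 15 of the 28 genes. At the ends of gene intervals 8 of 16 were stronger, and elsewhere 17 of 25, against 9.92% of all regions at such ends and 23.1% of the others within 100 kb. At a ratio of at least 2, 16 of the 41 remained (39.0%), against 4.85% of all. As for every list, these counts come from the values of the rule, so they are a description and test nothing. The interval also counts neighbouring regions as independent, though several lay together in the groups described next.

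Foxd1, a mesenchymal forkhead gene, had 4 stronger regions within 40.6 kb, and no other shared region there reached a GLI1 value of 10. The stretch is bounded by the stronger regions themselves, so this count follows largely from the choice. Over all shared regions with a GLI1 value of at least 10, 14.7% were stronger. At the Foxd1 start the value was 36.9 with GLI1 and 6.84 in control, a ratio of 5.39 (3.87 to 8.04). The region at chr13:98390282-98392375, 34.8 kb from the gene, had the highest value of the 4, with 60.9 with GLI1 and 18.7 in control. That at chr13:98393072-98394096 had 23.3 with GLI1 and 3.24 in control, and that at chr13:98365703-98366698 had 11.1 with GLI1 and 3.60 in control. Of the 4 only the region at the start overlapped the D5 list.

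On chromosome 8 the adjacent genes Foxf1, Foxc2 and Foxl1, forkhead factors of mesoderm and its derivatives, had 4 stronger regions within 46.3 kb, out of 5 shared regions there with a GLI1 value of at least 10. The stronger regions set the bounds of this stretch too, so the 4 of 5 is a description only. The region at Foxf1, chr8:121082596-121085223, had 50.4 with GLI1 and 10.8 in control, a ratio of 4.66 (3.56 to 6.37). At Foxl1, chr8:121124595-121128875, the values were 51.1 with GLI1 and 19.4 in control. At Foxc2 a region over the gene had 27.4 with GLI1 and 11.7 in control, and one 2.66 kb away had 14.0 with GLI1 and 8.82 in control. All but this last one were in the D5 list.

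A wider group on chromosome 13 held Foxq1, Foxf2 and Foxc1, again with 4 stronger regions, here within 242.7 kb. Foxf2, a close relative of Foxf1, had 32.6 with GLI1 and 11.3 in control at its start, and 13.7 with GLI1 and 3.78 in control inside the gene. Foxq1 had 11.8 with GLI1 and 5.22 in control, and a region 5.28 kb from Foxc1 had 10.9 with GLI1 and 5.4 in control. Beyond that last region the neighbours of Foxc1 did not follow it, since the region at the Foxc1 start had 46.7 with GLI1 and 41.6 in control, and one 2.78 kb from the gene had 5.27 with GLI1 and 16.9 in control.

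Of the remaining forkhead genes, Foxp1 had 39.1 with GLI1 and 14.0 in control at chr6:99101139-99102191 and 20.2 with GLI1 and 6.84 in control at chr6:98970469-98971339, both inside the gene and absent at D5. Foxa2, a factor of endoderm and floor plate, had 20.4 with GLI1 and 8.46 in control at its start. Foxd2 had 3 stronger regions, with ratios of 1.70, 1.71 and 3.06 at distances of 84.3, 87.0 and 3.28 kb from the gene. Foxp4 and Foxk1 had 2 each, 1 inside the gene and 1 at 50.8 kb from Foxp4 and 29.5 kb from Foxk1. Foxp2 and Foxo1 had 1 each, with ratios of 1.65 and 1.51, at 2.91 and 71.9 kb from the gene. Regions at an end of the gene were not stronger at Foxd2 (ratio 1.26), Foxp4 (1.30), Foxk1 (1.07) and Foxo1 (0.87). At the same time, a region inside Foxp4 had 16.5 with GLI1 and 33.7 in control and one near Foxo3 had 3.86 with GLI1 and 19.1 in control, so forkhead genes also held weaker regions, 6 in all in the control list.

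**Figure D2:**
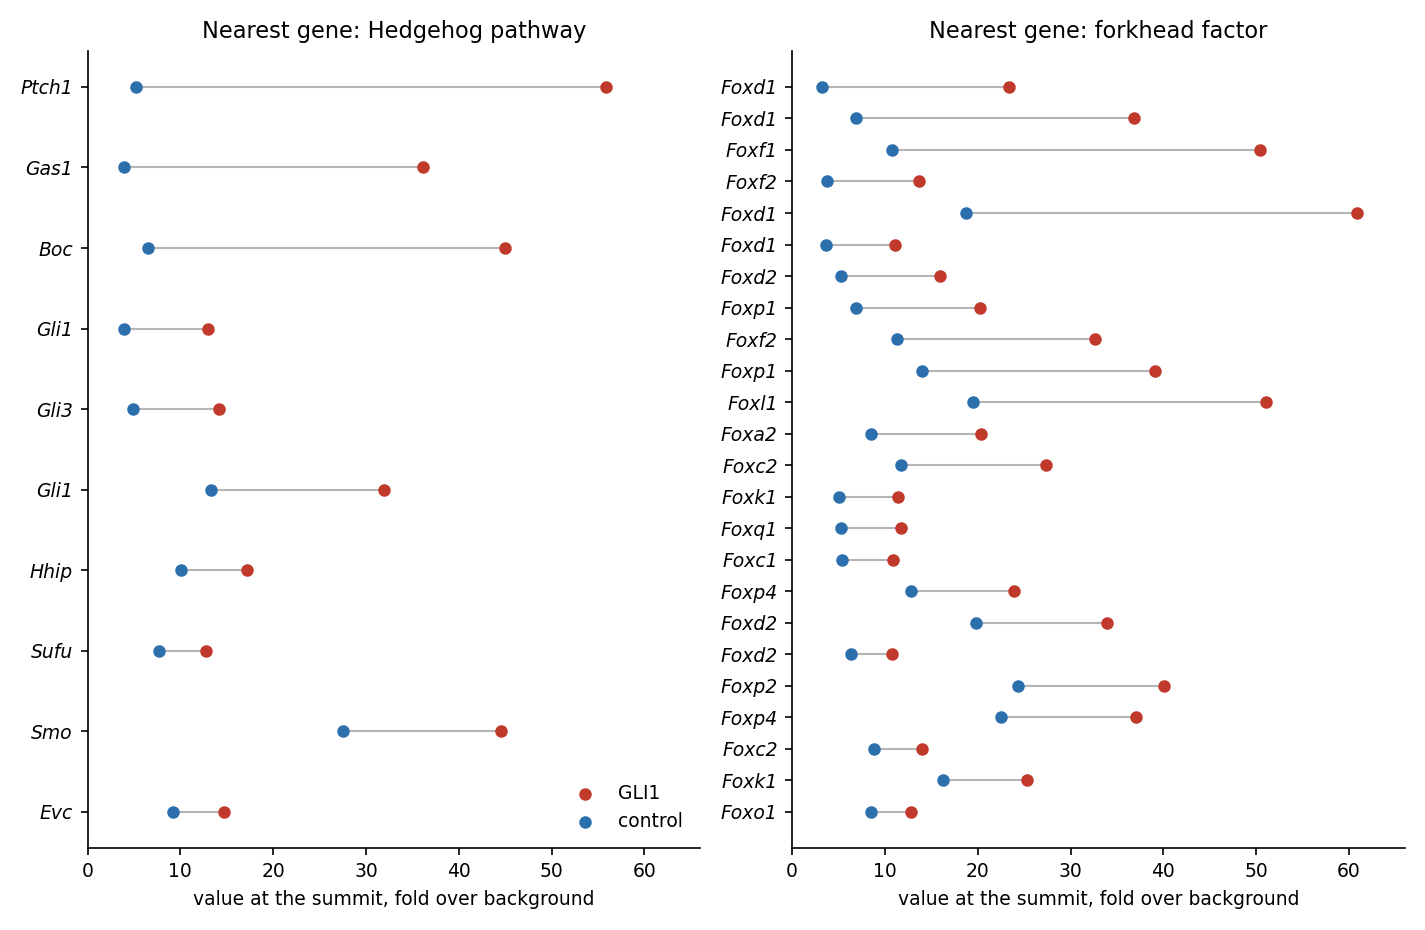
Each row is 1 stronger region at a gene described here, named by its nearest gene and ordered by its ratio, with its GLI1 value (red) and control value (blue) at the summit as fold over background. The largest gaps are at Ptch1, Gas1 and Boc among Hedgehog genes and at Foxd1 and Foxf1 among forkhead genes, and Smo and Foxp2 have the highest control values of their panels.

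The 1881 regions were spread over many genes. Within 100 kb of the summit, 1754 had a protein-coding gene, and 1568 genes were nearest to at least 1 of them, 1413 to exactly 1, 131 to 2, 18 to 3, 5 to 4 and 1 to 5. That 1 gene was Mrpl23, which encodes a mitochondrial ribosomal protein and in mouse borders the imprinted domain of H19 and Igf2. Its 5 stronger regions lay within 31.6 kb of each other, in the interval between Mrpl23 and the long noncoding RNA gene H19 (chr7:142575530-142578146), with the nearest summit 2.3 kb and the farthest 32.6 kb from H19. Their values were 14.7, 13.9, 14.4, 15.3 and 19.5 with GLI1, against 6.48, 3.24, 4.50, 7.38 and 6.84 in control, given in order along the chromosome. Of the 5, only the third was in the D5 list, and 5 of the 6 shared regions in the stretch they span with a GLI1 value of at least 10 were stronger. The gene was picked for its number of stronger regions, and these bound the stretch. The 5 of 6 therefore follows largely from the choice, and over all such regions the share was 14.7%.

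Among the genes with 4 stronger regions, Col18a1, the gene of collagen XVIII, had one with 57.0 with GLI1 and 9.18 in control, 31.5 kb from the gene, and 3 smaller ones. Ppfibp2 and Mob3b had 4 each. With 3 each, Adamts15, Pdzrn3, Dtnb, Tenm2, Zfp536 and Myrf had the largest ratios among 18 such genes. At Adamts15 the region at chr9:30833989-30835363 had 24.2 with GLI1 and 5.22 in control, and at Pdzrn3 that at chr6:101374113-101375472 had 37.6 with GLI1 and 11.7 in control. The ratios of Ppfibp2 and Mob3b lay between 1.54 and 2.70, below those of these regions at Adamts15 and Pdzrn3.

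Genes of the heart were also among those nearest. In the second heart field list, 14 of 47 regions were stronger (29.8%, 18.7 to 44.0). Osr1, a transcription factor of early lateral and intermediate mesoderm, had 29.1 with GLI1 and 5.4 in control at a region 76.0 kb away, and Bmp7, a bone morphogenetic protein, had 27.0 with GLI1 and 14.4 in control just outside the gene and 17.7 with GLI1 and 7.38 in control inside it. In the cardiac transcription factor list, 10 of 26 were stronger (38.5%, 22.4 to 57.5). Myocd, the coactivator myocardin of heart and smooth muscle, had 27.4 with GLI1 and 10.4 in control, and Prdm16 had 19.5 with GLI1 and 5.58 in control and 15.1 with GLI1 and 4.32 in control. Contractile and calcium genes had 3 of 12, at Tpm1 (28.8 with GLI1, 17.3 in control), Ryr2, the calcium release channel (17.6 with GLI1, 9.18 in control), and Cacna1c (14.6 with GLI1, 5.22 in control). The interval of this last share, 8.89 to 53.2%, took in the 14.1% of all regions. Those of the second heart field and cardiac factor lists lay above it, but the 14.1% takes no account of position. Away from the ends of gene intervals, 11 of 37 second heart field and 7 of 16 cardiac factor regions were stronger. Of all regions there within 100 kb, 23.1% were. At such ends, 3 of 10 in each of these lists were stronger, against 9.92% of all. These counts come from the values of the rule and test nothing.

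Of the signalling lists, BMP and TGF-beta genes had 8 stronger of 35 (12.1 to 39.0%), Wnt 7 of 35 (10.04 to 35.9%), retinoic acid 5 of 19 (11.8 to 48.8%), FGF 4 of 24 (6.68 to 35.9%) and Notch 2 of 22 (2.53 to 27.8%). All of these intervals took in the 14.1% of all regions. The genes named next are single regions and not a result about their pathways. An interval that lies above 14.1% is no such result either, since the counts come from the values of the rule. The largest ratio among them was at Hes1, a Notch target that encodes a repressor, where a region 28.9 kb away had 27.6 with GLI1 and 4.50 in control. Smad7, an inhibitor of TGF-beta signals, had 22.1 with GLI1 and 4.32 in control inside the gene, and Fgfr2, an FGF receptor gene, had 43.0 with GLI1 and 10.98 in control at chr7:130278352-130280082. Cyp26b1, which encodes a retinoic acid-degrading enzyme, had 27.2 with GLI1 and 10.1 in control. For Wnt genes the largest ratio was 2.98, near Sfrp2 (18.8 with GLI1, 6.30 in control).

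Shares in lists of other lineages are read against the same 14.1%. Paraxial mesoderm genes had 7 of 19, among them a region 51.1 kb from Uncx with 28.4 with GLI1 and 7.38 in control. Smooth muscle, epicardial and fibroblast genes had 6 of 20, with 19.5 with GLI1 and 4.86 in control inside Pdgfrb, a growth factor receptor gene of mesenchyme. Pluripotency genes had 5 of 15 (15.2 to 58.3%), endoderm 4 of 12 (13.8 to 60.9%) and endothelium and blood 4 of 13 (12.7 to 57.6%). Near Sall4 the values were 17.7 with GLI1 and 4.50 in control, and near Nfatc1, a factor of endocardium, 17.9 with GLI1 and 4.86 in control. Neural progenitor genes had 2 of 15, with a median ratio of 0.87 over the 15. Primitive streak and early mesoderm genes had 0 of 10 (interval up to 27.8%), cell cycle genes 3 of 34, with 19.3 with GLI1 and 3.60 in control at a region 23.2 kb from Ccne1, the gene of cyclin E1, and housekeeping genes 1 of 14. Of the lists in this paragraph, the intervals of paraxial mesoderm (19.1 to 59.0%), smooth muscle, epicardium and fibroblast (14.5 to 51.9%) and pluripotency lay above 14.1%, and all others took it in. The 14.1% takes no account of position: 9.92% of regions at the ends of gene intervals were stronger and 23.1% of the others within 100 kb. The stronger regions at ends and elsewhere were 3 of 10 and 4 of 9 for paraxial mesoderm. They were 2 of 7 and 4 of 13 for smooth muscle, epicardium and fibroblast, and 0 of 7 and 5 of 8 for pluripotency. These counts come from the values of the rule, so the intervals test nothing. Many of the intervals overlap each other, and the lists share genes.

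**Figure D3:**
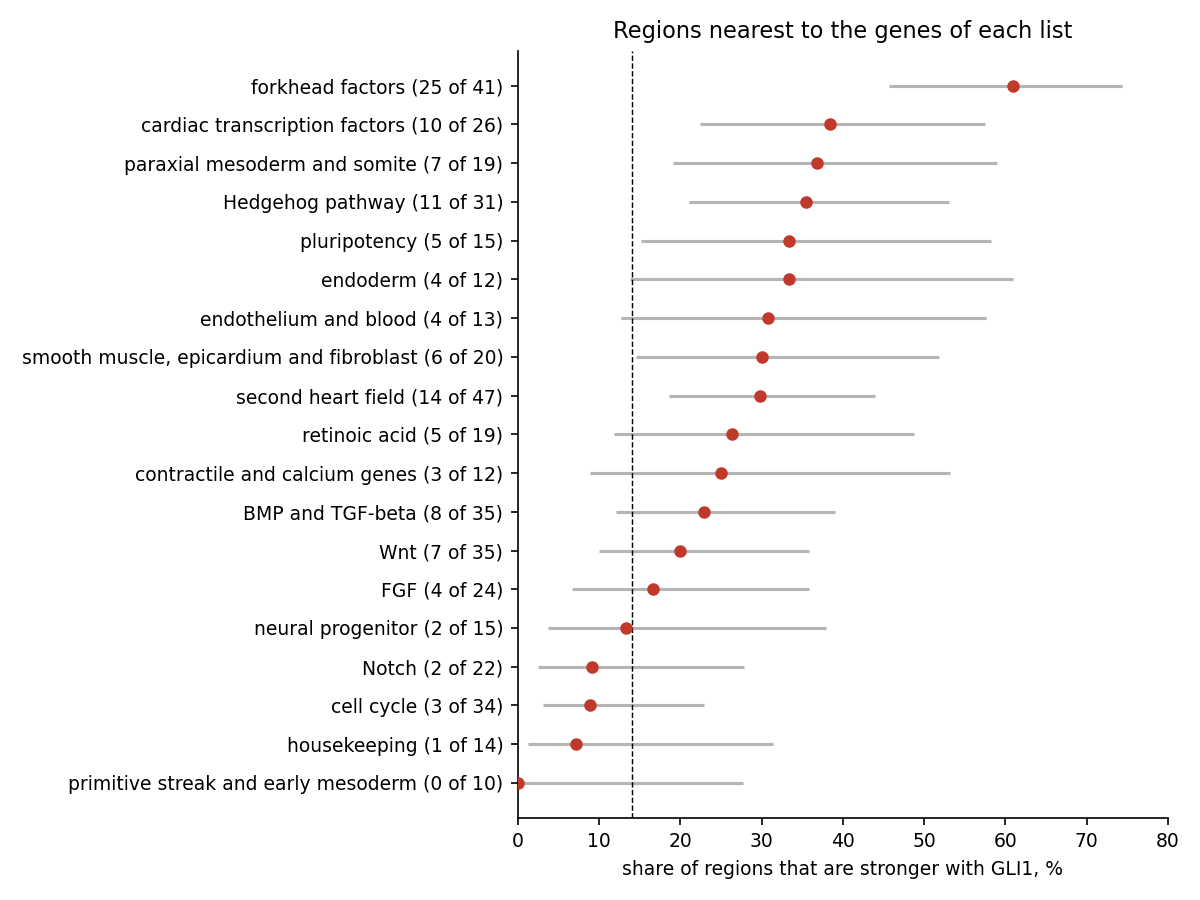
For each of the 19 gene lists, the point is the share of regions with a GLI1 value of at least 10, nearest to its genes within 100 kb, that were stronger with GLI1, with counts beside the name and Wilson 95% intervals as bars, counting error only. The dashed line is the 14.1% of all such regions; forkhead genes are highest at 61.0% and primitive streak genes are at 0.

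The highest values among the 1881 regions were at other genes and came with small ratios. The highest, 120.1 with GLI1 and 74.2 in control, lay 404 bp from Skil, which encodes the SMAD corepressor SnoN. Next were Fat4, an atypical cadherin gene (100.2 with GLI1, 51.7 in control), Ubl3 (85.5 with GLI1, 56.9 in control) and Cdc34, a ubiquitin-conjugating enzyme gene (85.0 with GLI1, 56.5 in control). Among the rest of the 10 were those at Zfp960, Golim4, Rassf7, Pdzd2 and Fam53a, with 70.4 to 79.5 with GLI1 and 36.0 to 50.2 in control. All 10 ratios lay between 1.503 and 1.96, all 10 regions were in the D5 list, and none of the 10 was among the 10 largest ratios.

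Ratios fell into 4 ranges with different makeup. From 1.5 to 2 there were 1206 regions (64.1%), from 2 to 3 there were 428 (22.8%), from 3 to 5 there were 183 (9.73%) and from 5 up there were 64 (3.40%). The median control value was 10.6, 6.48, 4.50 and 3.78 in these ranges, in that order, and the median GLI1 value 18.1, 14.9, 16.5 and 25.5. Since the ratio is made of these values, the ranges describe the selection and show nothing beyond it.

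Whether these regions had been open on day 5 was a question the rule had not used. Of the 1881 regions, 1336 overlapped a region of the D5 list (71.0%, 68.9 to 73.0). Among the weaker regions the share was 25.2% (23.3 to 27.1), and among those between the thresholds 93.3% (92.9 to 93.8). The stronger regions thus exceeded the weaker by 45.9 percentage points (43.0 to 48.6) and fell short of those between the thresholds by a difference of −22.3 points (−24.5 to −20.3). The Newcombe intervals of these differences cover counting error only, and the D5 list came from 2 libraries and another way of calling, which bears on all 3 classes.

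The share in the D5 list moved with the control value. Among stronger regions it was 34.4% below a control value of 5, 65.9% from 5 to 10, 83.9% from 10 to 15, 91.2% from 15 to 25 and 98.3% above that. Among regions between the thresholds, which had few low values, it was 79.8% from 5 to 10, 82.1% from 10 to 15, 92.9% from 15 to 25 and 98.5% above that. Set side by side at like control values, stronger regions and those between the thresholds differed by 1.83 points from 10 to 15 (−2.53 to 5.63), by −1.62 points from 15 to 25 (−5.67 to 1.37) and by −0.211 points above that (−4.43 to 1.05). At control values of 10 and more their shares were thus not distinguishable by counting error, while from 5 to 10 the difference was −13.8 points (−18.4 to −9.06). In that range regions between the thresholds need a GLI1 value of at least 10 and so lie at its upper end. Against all other shared regions with a control value of 5 to 10, of which 45.8% were in the D5 list, the stronger regions were 20.1 points higher (16.6 to 23.5), and below 5, where the others had 34.3%, the difference was 0.077 points (−5.63 to 6.23).

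The difference from the weaker regions did not depend on the control value in this way. From 10 to 15 the share in the D5 list was 83.9% of stronger and 24.4% of weaker regions, from 15 to 25 it was 91.2% and 23.4%, and above that 98.3% and 29.6%, in the same order. The differences were 59.5 points (54.5 to 63.9), 67.9 points (62.7 to 72.0) and 68.7 points (62.5 to 73.1). Like control values leave the GLI1 values of the classes apart by definition. At like highest values of either list the differences were smaller. They were 37.9 points from 10 to 15, 48.8 from 15 to 25, 52.1 from 25 to 50 and 54.0 from 50 up. Regions equally open in D7 control were found on day 5 about as seldom at every strength when they were weaker with GLI1. Where a region was in the D5 list, its fold there, which is on another scale, had a median of 7.89 for stronger, 5.87 for weaker regions and 9.74 for those between the thresholds.

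**Figure D4:**
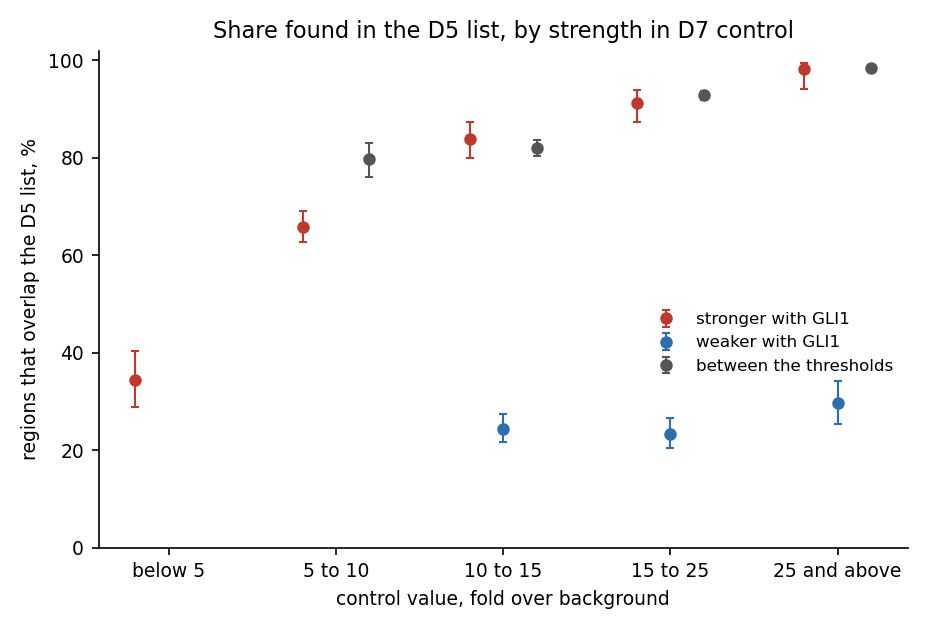
The vertical axis is the share of regions that overlap the D5 list, in ranges of the control value, with Wilson 95% intervals (counting error only). Stronger regions (red) and those between the thresholds (grey) overlap from a control value of 10 on, while weaker regions (blue) stay between 23.4% and 29.6%; weaker regions have a control value of at least 10 by definition, and regions between the thresholds rarely have one under 10.

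Among the stronger regions the share in the D5 list was lower where the ratio was higher. It was 83.1% at ratios of 1.5 to 2, 58.4% at 2 to 3, 40.4% at 3 to 5 and 15.6% (8.71 to 26.4) at 5 and above. The order was similar within a range of the control value: from 5 to 10 it was 71.9% of 541 regions, 58.6% of 239, 51.7% of 58 and 15.4% of 13, and below 5 it was 44.1% of 93 at ratios of 2 to 3, 34.8% of 112 at 3 to 5 and 15.7% of 51 at 5 and above. So both a low control value and a high ratio went with absence from the D5 list. Of the 64 regions with a ratio of at least 5, 10 were in the D5 list, and those absent from it include Ptch1, Gas1, Boc, Efna5, Scube1 and Limch1.

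Position relative to genes was the other feature the rule had not used. A region was counted at a gene start when its summit lay within 1 kb of a start in the RefSeq promoter table. That table lists starts for 17492 of 21900 protein-coding genes (79.9%) and for none on chromosome 18, so 1821 of the 1881 regions entered. Of these, 699 were at a gene start (38.4%, 36.2 to 40.6), against 5.08% of weaker regions (4.18 to 6.16) and 67.2% of those between the thresholds (66.3 to 68.1). Over all control values the stronger regions stood between the other classes: the differences were 33.3 points (30.8 to 35.7) from the weaker and −28.8 points (−31.2 to −26.4) from those between the thresholds. At like control values the second difference was −11.4 points from 5 to 10 and −2.11 from 10 to 15 (−7.68 to 3.52). It was −6.55 points from 15 to 25 (−12.9 to −0.449) and −12.8 above that (−21.9 to −4.59). Against all other shared regions the stronger ones differed by −6.34 points below 5, 12.1 from 5 to 10 and 12.3 from 10 to 15. From 15 to 25 this difference was 7.26 points, and above that −5.71 (−14.8 to 2.50). More than 100 kb from any protein-coding gene lay 6.75% of the stronger, 16.0% of the weaker and 1.34% of the regions between the thresholds. Inside a gene interval lay 55.3% of the stronger regions, 48.5% of the weaker and 56.9% of those between the thresholds.

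Seen from the position, 699 of 7648 shared regions at gene starts with a GLI1 value of at least 10 were stronger (9.14%, 8.51 to 9.81), against 1122 of 4736 away from them (23.7%, 22.5 to 24.9). The stronger regions at gene starts had values of 19.7 with GLI1 and 11.2 in control at the median and a median ratio of 1.68. Those away from gene starts had 16.0 with GLI1 and 7.20 in control, and a median ratio of 1.96. Ratios of at least 3 were found at 21 regions at a gene start and at 218 away from one, and ratios of at least 5 at 3 and 60. The share at a gene start was 50.3% at ratios of 1.5 to 2, 22.1% at 2 to 3, 10.2% at 3 to 5 and 4.76% at 5 and above, and Foxd1 held the largest ratio at a listed start. The start listed for Ptch1 lay 7.79 kb from the summit of its region, and at the ends of gene intervals the largest ratio was the 10.7 of Ptch1. Large ratios were thus found chiefly away from gene starts. They also came with low control values, with a median of 3.78 at ratios of 5 and above, and control values were lower away from starts. Position and control value were not separated here.

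Being at a gene start and being in the D5 list went together. At gene starts 95.3% of stronger, 66.7% of weaker and 98.6% of the regions between the thresholds were in the D5 list, and away from them 55.6%, 22.7% and 82.6%, in the same order. Away from gene starts the stronger regions in the D5 list numbered 69.3% of 580 at ratios of 1.5 to 2 and 13.3% of 60 at ratios of 5 and above. The order of the 3 classes was the same at gene starts and away from them.

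**Figure D5:**
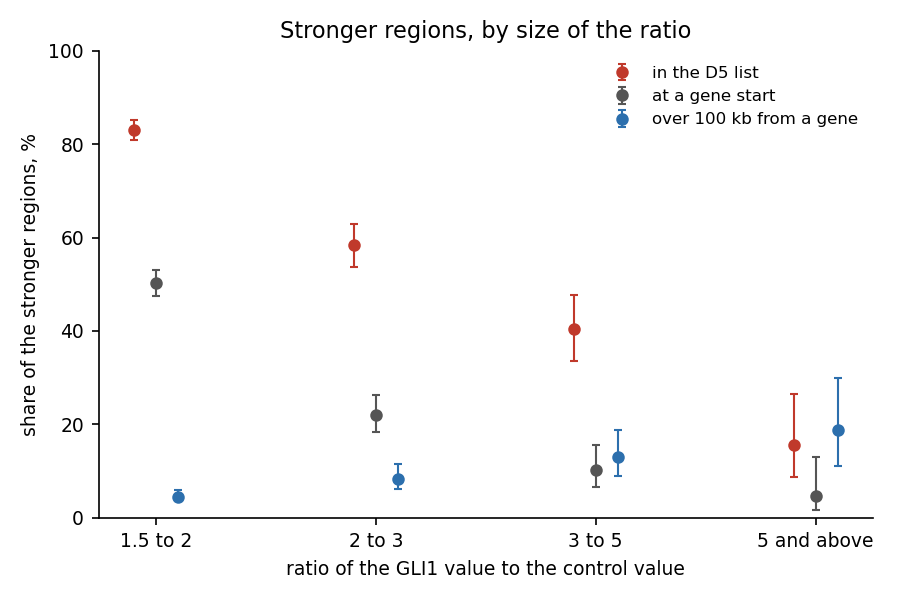
For the stronger regions in 4 ranges of the ratio of the GLI1 value to the control value, the points give the share in the D5 list (red), at a gene start (grey) and more than 100 kb from a protein-coding gene (blue), with Wilson 95% intervals, counting error only. The first falls to 15.6% at ratios of 5 and above, against 83.1% at 1.5 to 2, and the second to 4.76% against 50.3%, while the third is 18.8% against 4.56%.

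The neighbourhood of the stronger regions comes from the same pair of lists as the rule and is given as a description. Another stronger region had its summit within 50 kb of 18.5% of the stronger, 14.1% of the weaker and 13.5% of the regions between the thresholds. A region found with GLI1 and not in control lay that near to 65.8% of the stronger, 65.3% of the weaker and 61.4% of the regions between the thresholds. A region found in control and not with GLI1 lay that near to 49.7%, 69.7% and 52.0%, in the same order. At ratios of 5 and above, 78.1% of the 64 stronger regions had a region found only with GLI1 nearby, against 61.8% at ratios of 1.5 to 2. The other kinds of neighbour were also more frequent there. For regions found only in control the shares were 54.7% against 45.9%, in the same order. For another stronger region they were 29.7% against 16.0%, and for a weaker region 18.8% against 12.9%. The region at Foxf1, with a ratio of 4.66, had 7 regions found only with GLI1 nearby.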

How the data were processed

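ATAC-seq libraries of 3 groups (3 D7 GLI1 OE, 3 D7 control, 2 D5 control) were deposited as 1 peak list a group. Tools named, per the submitters' processing notes, are MACS2 2.1.1, Picard, SAMtools 1.5 and Bowtie2 2.3.2, with mm10 as the build. Each peak carries the fold of its summit pileup over background, a ratio the authors' peak caller made, and the authors deposited with it a −log10 q, a score of 10 times that −log10 q, and the offset of the summit from the start in bases. All folds of both D7 lists were whole multiples of a step (0.176 with GLI1, 0.180 in control, tolerance 0.01 steps), from which pileups in reads were recovered. The D5 list had another way of calling, and its folds were compared with no D7 fold. Library read totals were not used here.

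Peaks were merged and compared in Python 3.11.15 with numpy 2.4.6, pandas 2.3.3 and scipy 1.17.1, after a check on simulated regions. An overlap of 1 base counted as shared. Shares carry Wilson and differences Newcombe 95% intervals. These, and the exact intervals of ratios, cover counting error only. Genes were the nearest to the summit of the RefSeq protein-coding intervals (GRCm38.p6), and counts by gene and by list took only those within 100 kb. Exon and intron status was not annotated, and no genome sequence was used.

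The regions, the 19 gene lists (367 distinct genes) and the tests were chosen with earlier results of these data known. Genes are named by a rule: the 10 largest ratios and the 10 largest GLI1 values, the 3 regions on each side of both thresholds, up to 12 genes with the most stronger regions, each Hedgehog and forkhead gene with one, up to 4 genes in each other list and the 5 most extreme weaker regions. A few genes that the rule names are not reported here, though counts include them. Neighbouring regions of Hedgehog and forkhead genes were picked after their values were seen, as were H19 and the other promoters shown. Alternatives changed the scale, the thresholds, the overlap, the D5 list and the distances.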

Additional observations from a re-analysis of the deposited data

How the results depend on the processing

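Of settings that changed the rule, a ratio of at least 2 kept 675 regions and a value of at least 15 kept 1138. The other 6 settings gave 1483 to 2662, and dividing by the median ratio kept 1567, all among the 1881. Of 109 regions at listed genes, 54 remained at a ratio of at least 2.

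For the share in the D5 list, given as the share, the difference from weaker regions and that from regions between the thresholds in points, a ratio of at least 2 gave 49.5%, 29.9 and −40.1, and the divided ratio 67.8%, 39.8 and −25.7. With the summit inside a D5 region, the share was 65.5% and the difference from regions between the thresholds −25.6. With D5 peaks of a −log10 q of at least 5 these were 58.6% and −29.3. By the highest value, 10 to 15 gave 62.3%, 37.9 and −16.2, 15 to 25 gave differences of 48.8 and −19.1, 25 to 50 gave 81.3%, 52.1 and −16.6, and 50 and above 89.5%, 54.0 and −10.2. By the control value, 10 to 15 gave 83.9%, 59.5 and 1.83, which reversed the sign with an interval that spans 0, 15 to 25 gave 91.2%, 67.9 and −1.62, and 25 and above 98.3%, 68.7 and −0.211. Weaker regions taken from the GLI1 list gave a difference of 51.8.

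For the share at a gene start, in the same order, a ratio of at least 2 gave 17.3%, 14.7 and −45.5, and the divided ratio 35.1%, 28.3 and −32.3. A distance of 5 kb gave 44.0% and either end of a gene interval 44.8% with a difference of 37.1 from weaker regions. By the highest value, 10 to 15 gave 30.9%, 26.0 and −14.6, 15 to 25 a difference of −21.9, 25 to 50 gave 48.2%, 44.1 and −26.1, and 50 and above 50.9% and a difference of 43.7 from weaker regions. Weaker regions taken from the GLI1 list gave 24.5.

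The control value, joined regions, either gene end, a start inside the region, weaker regions of the GLI1 list and promoters that touch a region were chosen after seeing the data. The cause of these shifts was not tested. The planned change of the motif window needed a genome and was not run. No paired analysis was possible because replicates were pooled into 1 list a group, which also leaves no library to omit.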

Other observations

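The rule was limited to chromosomes 1 to 19. On chromosome X it would have kept 64 of 362 shared regions with a GLI1 value of at least 10 (17.7%, 14.1 to 21.9), with ratios up to 5.201, and 35 regions of chromosome X were weaker. Among chromosomes 1 to 19 the share ran from 11.03% on chromosome 11 (9.27 to 13.1) to 19.04% on chromosome 13 (16.0 to 22.6). Chromosome 10 was close to the latter at 18.7% (15.9 to 21.9).

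MicroRNA hairpins, of which the RefSeq table lists 1005, lay inside 4 of the stronger regions. Hairpins inside the other shared regions were not counted, so the 4 are single regions and not a result about microRNAs. The hairpins of Mir210, a microRNA induced by low oxygen, and Mir5130 lay in regions with 70.7 and 67.2 with GLI1, against 43.0 and 43.9 in control. Those of Mir92b and Mir7654 lay in regions with 21.2 and 31.8 with GLI1, against 10.98 and 21.1 in control. All 4 regions were in the D5 list, and their ratios lay between 1.51 and 1.93.

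The 5 most extreme weaker regions were nearest to Maf, Cdh5, Cplx2, Mroh9 and Skint11. The strongest in control, 619 kb from Cdh5, had 4.56 with GLI1 and 41.4 in control and was in the D5 list, while the other 4 were not.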
